A study of Caenorhabditis elegans with 4 samples.

Results

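The strong narrow ZHP-3 peaks are 877 short regions of the Caenorhabditis elegans genome with a high peak score. They were selected on 2 measured values of one peak list, a score of 65 or more and a width below 1000 bp, and they make up 7.41% of the 11840 peaks of that list on the 6 nuclear chromosomes. The list is a series-level one, called the combined list here, and the score was written by the authors' peak caller, on a scale that the file does not name. The 3 mitochondrial peaks of the list were left out, and 0 of them reached the score limit. The members were set against the 10125 other narrow peaks, which are also below 1000 bp but score below 65, and in places against the 381 strong wide peaks, which reach the score limit at 1000 bp or more.

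Chromatin immunoprecipitation with sequencing (ChIP-seq) was done with an affinity-purified rabbit polyclonal antibody against ZHP-3, in 2 ChIP libraries, beside 2 libraries of input DNA. All 4 libraries came from hermaphrodites of the strain fem-2(b245), with the genotype fem-2(b245)III, labelled as young adults with a germline and kept at 20 °C. No other genotype, treatment or time was part of the design, so every value below carries the fem-2 mutation. The growth protocol speaks of gravid adults, and whole frozen worms were ground, so somatic nuclei are in the chromatin too. The labels do not say that the replicates were separate cultures, so agreement between them may be technical.

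ZHP-3 is a RING-finger protein of the family that includes yeast Zip3. In meiosis it first lies along the synaptonemal complex, the protein structure that joins paired chromosomes, and later gathers at the sites that become crossovers. Crossovers in this worm fall mostly on the chromosome arms. The X chromosome carries few genes that are active in the germline and differs from the autosomes in its chromatin there. fem-2 encodes a protein phosphatase of the sex-determination pathway, and its loss feminises the germline. Whether the germlines of these worms, labelled as hermaphrodites, were feminised was not examined here.

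The members scored from 65.03 to 161.45, with a median of 88.47 and quartiles of 74.51 and 107.02. Their widths started at 258 bp, with a median of 576 bp (quartiles 453 and 751). Together they covered 529 kb, or 0.527% of the chromosomes. Both values chose the members and are given as a description only. Scores were partly discrete: the 877 members held 582 distinct scores, and 413 members shared theirs with at least 1 other. Within the members, score and width had a Spearman's rho of 0.31 over 877 peaks of one list. Of the 1258 nuclear peaks that reached the score limit, 69.7% were narrow enough to be members.

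The limits cut through a continuous range. The members just inside the score limit scored 65.03, 65.17 and 65.55, and the narrow peaks just below it scored 64.98, 64.96 and 64.94. The widest members were 1 to 3 bp short of the width limit, among them peaks of 998 bp on X and 997 bp on V. The narrowest strong peaks beyond the width limit measured 1000, 1001 and 1001 bp.

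The top member, with 161.45 and a width of 845 bp, sat on the left arm of chromosome IV, from 3313009 to 3313853 (coordinates on WormBase WS220 throughout). The next was also on the left arm of IV, from 3725538 to 3726424, with 159.57. A peak near the right end of III, from 13643181 to 13643980, scored 159.31. The highest member in a chromosome centre ranked 4 among the members, lay on I from 7894709 to 7895609 and scored 158.91. Ranks 5 to 7 were held by a peak of III from 1920792 to 1921784, with 158.34, and by peaks of IV from 4725364 to 4725811 and from 16845200 to 16845839, each with 157.78. These 7 peaks came from chromosomes I, III and IV.

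A score of 156.91 was shared by 4 members, which tied at rank 8. They lay on I from 4167682 to 4168498, on III from 10758853 to 10759778, on IV from 4049050 to 4050016, and the highest member of X, from 16286056 to 16286985, was the last. The highest member of II, from 14561349 to 14562054, scored 156.02, and that of V, from 5591888 to 5592735, scored 152.52. Among these 13 peaks, 12 lay on chromosome arms (defined below), which held 69.6% of all members.

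Replicate scores of these peaks were high but did not follow the same order. The top member scored 2289 in replicate 1 and 2692 in replicate 2, and the member of III at rank 3 scored 2934 and 3100. The member of I at rank 4 had 2396 in replicate 1 and the lower value, 2158, in replicate 2. A score of 3100 in both replicates was met by the member of III from 1920792. The highest member of X had 1822 in replicate 1 and 2186 in replicate 2, that of II had 1899 and 2275, and that of V had 1472 and 1969. The 3 narrowest members scored lower in the combined list. They were 258 bp on I from 4114506 to 4114763 with a score of 74.51, 289 bp on V from 16950037 to 16950325 with 87.67, and 293 bp on I from 13310650 to 13310942 with 82.96.

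Members were found on every nuclear chromosome, most densely on III, I and II. Chromosome III held 177 members, or 12.8 per Mb, and chromosome I held 178, or 11.8 per Mb. Chromosome II held 150, or 9.82 per Mb. The other chromosomes were sparser, with 7.03 per Mb on IV (123 members), 6.69 on V (140) and 6.15 on X (109). The other narrow peaks ran from 127 per Mb on III to 86.1 per Mb on X.

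As a share of the narrow peaks, members were also most frequent on I, III and II. The share was 9.21% on I (Wilson 95% interval 8.0 to 10.6), 9.19% on III (7.98 to 10.6) and 8.93% on II (7.66 to 10.4). It was 7.11% on V (6.06 to 8.34), 6.67% on X (5.56 to 7.99) and 6.60% on IV (5.56 to 7.82). The interval of V overlapped all others, those of IV and X overlapped that of II, and that of X just reached that of III. Such intervals treat peaks as independent and cover counting error only. Chromosome IV stood lowest by this share but not by strong peaks of any width. Of its 211 strong peaks 88 were 1000 bp or wider, which is 41.7% (35.3 to 48.4), against 25.5% to 31.7% on the other chromosomes. Counted at any width, strong peaks numbered 12.1 per Mb on IV, 9.80 on V and 8.30 on X.

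**Figure D1:**
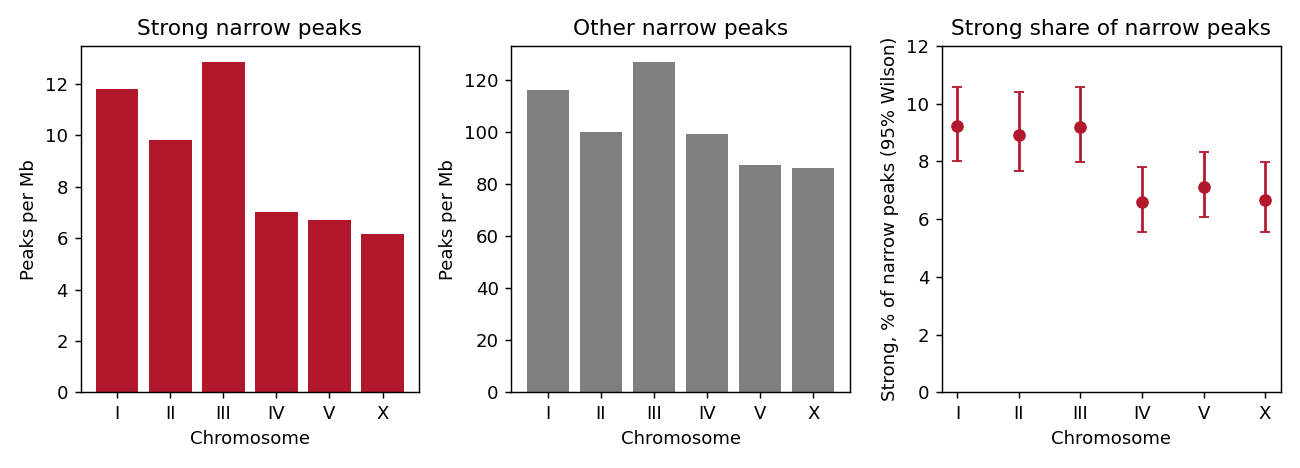
Bars give the strong narrow peaks per Mb (left) and the other narrow peaks per Mb (middle) on each chromosome, and points give the strong share of narrow peaks with its Wilson 95% interval (right). Chromosomes I, II and III lie between 8.93% and 9.21%, and IV, V and X between 6.60% and 7.11%.

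X was set against the autosomes because of its particular chromatin in the germline. It had 6.15 members per Mb, against 9.30 on the 5 autosomes, a ratio of 0.66. The other narrow peaks had 86.1 per Mb on X and 104 per Mb on the autosomes, a ratio of 0.83. The low ratio was not particular to members: strong wide peaks had 2.14 per Mb on X and 4.15 on the autosomes, a ratio of 0.52. Other narrow peaks scoring 30 or more had a ratio of 0.96. Of the members 12.4% lay on X (Wilson 95% interval 10.4 to 14.8), and of the other narrow peaks 15.1% (14.4 to 15.8), while X makes up 17.7% of the chromosome length. The strong share of narrow peaks was 6.67% on X, against 8.20% on the autosomes, a ratio of 0.81. With chromosomes as the units X was not set apart: an exact permutation over 6 chromosomes gave p = 0.333, and the design cannot go below 0.167. The permutation compared the absolute difference between the strong share of 1 chromosome and the mean share of the others, not the ratio itself. Among peaks under 500 bp the ratio turned to 1.17 (exact p = 0.333). Members had a median width of 507 bp on X, against 585 bp on the autosomes, and a median score of 82.80 on X, against 89.27.

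The arms held 69.6% of the members and 65.9% of the other narrow peaks, a difference that missed the threshold of 0.05 with chromosomes as the units. Each chromosome was cut into 3 parts of equal length, the outer ones being the arms. On the arms lay 610 members (Wilson 95% interval of the share 66.4 to 72.5) and 6676 of the other narrow peaks (65.01 to 66.9). The log2 ratio of arm to centre density averaged 0.22 ± 0.17 for members and -0.04 ± 0.13 for other narrow peaks (SD over n = 6 chromosomes). The difference of these ratios was 0.26 ± 0.25, positive on 5 of 6 chromosomes, with an interval from -0.13 to 0.65 (two-sided exact sign-flip test, p = 0.0625). The ends of this interval are the values of chromosomes I and IV.

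By chromosome, the arm to centre log2 ratio of members was 0.51 on IV, with 91 members on the arms and 32 in the centre. It was 0.27 on X (77 and 32), 0.22 on V (98 and 42), 0.18 on II (104 and 46) and 0.11 on III (121 and 56). On chromosome I it was 0.01 (119 and 59), the single chromosome where the other narrow peaks, with 0.14, had the larger ratio.

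The comparison changed with the peaks the members were set against. Against the 3410 other narrow peaks present in both replicate lists, the difference was 0.43 ± 0.18, positive on 6 of 6 chromosomes (exact sign-flip p = 0.031, the smallest that 6 chromosomes allow). Those peaks had 63.3% on the arms (61.6 to 64.9), and a mean log2 ratio of -0.22 ± 0.12. With the score limit lowered to 50 the difference over all other narrow peaks was 0.03 ± 0.23 (exact p = 0.75). The position classes are fixed by length alone, and peaks per part carry no read depth.

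**Figure D2:**
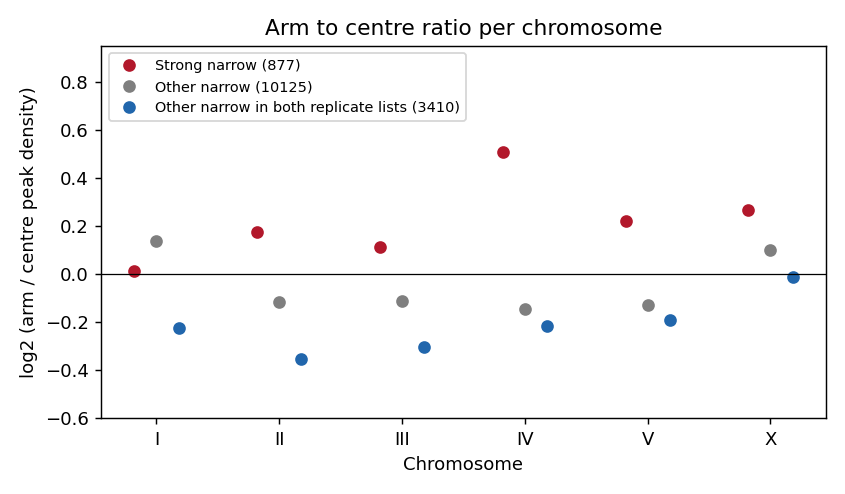
Each point is the log2 ratio of peak density on the arms to that in the centre of 1 chromosome, for strong narrow peaks, all other narrow peaks, and other narrow peaks found in both replicate lists. The strong narrow peaks run from 0.01 on I to 0.51 on IV and lie above the peaks found in both lists on every chromosome.

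Of all score bands, the highest-scored members had the largest share on arms and the smallest share on X. The bands were drawn after the values were seen, and their shares are given as a description, with no test. Of the 120 members that scored 120 or more, 101 lay on arms, or 84.2% (76.6 to 89.6), and 6 on X, or 5.00% (2.31 to 10.5). By chromosome their counts on arms and in the centre were 16 and 1 on I, 23 and 4 on II, 27 and 5 on III, 18 and 3 on IV, 11 and 6 on V, and 6 and 0 on X. Of the 757 members below 120, 67.2% lay on arms (63.8 to 70.5) and 13.6% on X (11.3 to 16.2). The bands from 65 to 80, 80 to 100 and 100 to 120 had 66.7%, 69.8% and 64.1% on arms, so the shares did not climb evenly. For X these bands had 14.9%, 14.6% and 9.58%. Without the members of 120 or more, the difference in arm log2 ratio to other narrow peaks was 0.11 ± 0.29 (SD over 6 chromosomes).

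The 6 members of X in this band were few enough to name, after their values were seen. After the one with 156.91 came peaks from 13995682 to 13996101 with 144.48, from 516247 to 516960 with 143.59 and from 1093016 to 1093571 with 124.92. The last of them lay from 12171758 to 12172283, with 123.75, and from 4388691 to 4389262, with 122.70. Of 126 strong wide peaks at 120 or more, 71.4% lay on arms (63.0 to 78.6) and 10.3% on X (6.13 to 16.9).

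**Figure D3:**
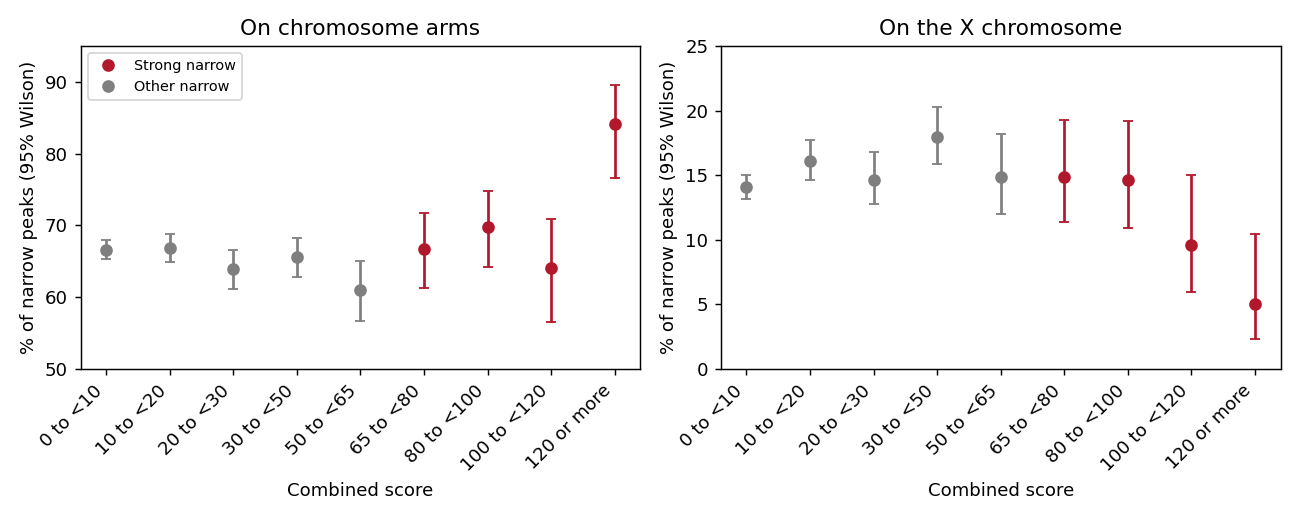
Points give the share of narrow peaks on chromosome arms (left) and on X (right) by band of combined score, with Wilson 95% intervals, for strong narrow peaks (65 or more) and other narrow peaks (below 65). The band of 120 or more stands at 84.2% on arms and 5.00% on X.

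The same positions were then counted in the replicate lists, each of which belongs to 1 ChIP library. As many of the highest-scored peaks below 1000 bp as there are members, 877, were taken from each. On X lay 92 of them in replicate 1, or 10.5% (8.63 to 12.7), and 99 in replicate 2, or 11.3% (9.36 to 13.6). On arms lay 69.0% in replicate 1 and 68.8% in replicate 2, against 64.9% and 63.9% of the other narrow peaks of the same lists. The difference in arm log2 ratio was 0.29 ± 0.15 in replicate 1 and 0.31 ± 0.19 in replicate 2, positive on 6 of 6 chromosomes in each (exact sign-flip p = 0.031 for each). The strong share on X was 0.70 times that on the autosomes in replicate 1 and 0.69 times in replicate 2 (exact permutation p = 0.167 for each, the smallest possible). Among the 120 highest-scored narrow peaks, 78.3% lay on arms in replicate 1 (70.1 to 84.8) and 76.7% in replicate 2 (68.3 to 83.3). On X lay 7.50% of them in replicate 1 (4.0 to 13.6) and 9.17% in replicate 2 (5.2 to 15.7), beside 5.00% of the 120 highest-scored members. These lists hold many of the same sites as the combined list, so they are no independent sample of the genome.

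Chromosome tips held members at close to their share of the length. Within 500 kb of an end lay 55 members, or 6.27% (4.85 to 8.07), and 6.04% of the other narrow peaks, while these stretches make up 5.98% of the length.

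The median distance between neighbouring members, edge to edge, was 73477 bp (95% interval of the median 65770 to 78801, over 871 gaps), and ran from 46750 bp on III to 113500 bp on X. Gaps were unequal, with a mean of 113142 bp, and 76 of them exceeded 300 kb. The longest stretch with no member lay in the centre of chromosome IV from 7948717 to 8782130, 833 kb long, and still held 102 narrow peaks. Next were stretches of 731 kb on V and 666 kb on II.

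Groups of members were small. With gaps of at most 10 kb, 689 members stood alone, 158 formed 79 pairs and 30 formed 10 groups of 3, and no group was larger. The closest pair, on II, lay 63 bp apart, from 13334037 to 13334937 and from 13335001 to 13335722, and both replicate lists had 1 peak overlapping the pair. The next pairs lay 192 bp apart on I, from 4535681 to 4536482 and from 4536675 to 4537411, and 232 bp apart on II, from 5181440 to 5181995 and from 5182228 to 5182972, each resolved into separate peaks in both replicates. On X no gap was below 3128 bp. Over 197 full windows of 500 kb the median was 4 members and the range 0 to 12. The window from 12.5 to 13 Mb of chromosome I held the 12, and 3 windows held none.

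The nearest combined peak, whatever its width, lay farther from members than from the other narrow peaks taken as a whole. The nearest combined peak was a median of 1577 bp from a member, and 1155 bp from an other narrow peak. On the log10 scale the difference of medians was 0.15 ± 0.07 (SD over n = 6 chromosomes), positive on 6 of 6 (exact sign-flip p = 0.031, the smallest possible). This is 1.42-fold with an interval of 1.24 to 1.93, whose ends are the values of chromosomes II and X. X had the largest gap, 2529 bp for members and 1309 bp for others. This call ended when the other narrow peaks were limited to scores of 30 or more, with a log10 difference of -0.0075 ± 0.12 (exact p = 0.938). No gap in the combined list was below 51 bp, whereas the replicate lists had gaps down to 1 bp.

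A neighbour within 1000 bp was present for 329 members, or 37.5% (34.4 to 40.8), and for 46.6% of the other narrow peaks (45.6 to 47.5). The neighbours of members were close to the list as a whole. Their median score was 11.96, beside 12.7 over all nuclear combined peaks, and 87.2% were other narrow peaks, beside 85.5%. The share that overlapped both replicate lists was 42.9%, beside 42.4%. Among the neighbours 23 were members themselves, or 6.99%, beside 7.41% of all nuclear combined peaks. A peak of 1000 bp or more lay within 1000 bp of 2.62% of members (1.75 to 3.90) and of 5.83% of the other narrow peaks (5.39 to 6.30). The median distance to such wide peaks was 43833 bp from members and 40545 bp from others, but 48293 bp and 62206 bp on X. The difference, positive on 5 of 6 chromosomes, did not pass (log10 0.03 ± 0.08, exact sign-flip p = 0.375). With both classes at 500 bp or wider it did, at 0.15 ± 0.10 on 6 of 6 chromosomes (exact p = 0.031). The most isolated member lay in the centre of V from 9789326 to 9790245, scored 132.55 and was 48225 bp from any other combined peak.

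**Figure D4:**
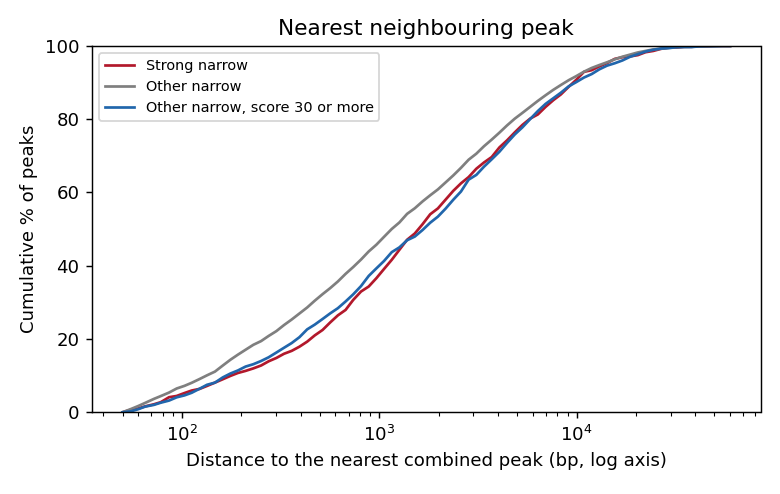
Lines give the cumulative share of peaks whose nearest combined peak, edge to edge, lies within the distance on the log axis, for strong narrow peaks, all other narrow peaks and other narrow peaks scoring 30 or more. The strong narrow peaks lie below the other narrow peaks at short distances, with 37.5% against 46.6% within 1000 bp, and close to those scoring 30 or more.

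Every member was present in both replicate lists. All 877 overlapped at least 1 bp of a peak in each (100%, Wilson 95% interval 99.6 to 100), beside 39.0% of all narrow combined peaks. Of the other narrow peaks 33.7% overlapped in both (32.8 to 34.6). All 381 strong wide peaks did so too, so the full match was not particular to members. Among the members 869 also shared 50% of each peak with both lists, and 871 matched a single peak in each. How the combined list was made is not stated, and it may rest on the same ChIP libraries as the replicate calls, so this match is a description. It climbed with score below the limit too, with 79.1% from 20 to 30, 97.5% from 30 to 50 and 99.4% from 50 to 65.

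Peak outlines were close between replicates. The midpoints of the 2 replicate peaks lay a median of 18 bp apart for 871 members (quartiles 8 and 34) and 24 bp apart for 3320 other narrow peaks with single matches (11 and 45.5). The replicate peaks at members were a median of 576 bp wide in replicate 1 and 589 bp in replicate 2, and 9 in replicate 1 and 16 in replicate 2 were 1000 bp or wider. Their widths had a rho of 0.77 between replicates for members and 0.61 for the 3410 other narrow peaks found in both.

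In score, members stood in the upper part of both replicate lists, which is given as a description only. They were chosen by a combined score related to the replicate scores, with a rho of 0.74 in replicate 1 and 0.69 in replicate 2 over the 877 members. Their replicate 1 peaks had a median score of 654, from 198 to 3233, and their replicate 2 peaks a median of 929, from 174 to 3201. The median percentile was 83.6 within replicate 1 and 84.8 within replicate 2, and 697 members in replicate 1 and 735 in replicate 2 scored at or above the upper quartile of the list. A score of 3100, at which many replicate peaks are tied, or above was met by 6 of the 877 members in replicate 1 and 13 in replicate 2. It was more frequent among the 381 strong wide peaks, whose upper quartile was 3100 in each replicate. Of the 877 highest-scored narrow peaks of replicate 1, 610 overlapped a member as their strongest combined peak, 112 a strong wide peak, 40 a weaker wide peak and 115 an other narrow peak. In replicate 2 these were 598, 110, 34 and 135. Of the members, 498 (56.8%) were overlapped in both such lists and 167 (19.0%) in neither. In that of replicate 1 alone were 112 (12.8%), and in that of replicate 2 alone 100 (11.4%). The same split is not given for the other classes of peaks, so it describes the members alone.

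Scores went together between the replicates, with a rho of 0.70 over the 877 members and 0.56 over the 3410 other narrow peaks found in both. The points come from 2 lists with the same score column, and the members cover a chosen range of a related score. Replicate 2 had the higher score at 737 members, or 84.0% (81.5 to 86.3), and at 70.8% of the other narrow peaks found in both (69.2 to 72.3). The median ratio of replicate 2 to replicate 1 was 1.45 for members, from 1.40 on V to 1.56 on X, and 1.37 for the others. Depth is unknown and the scale is not named, so the ratio cannot be read as more binding.

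A few members differed widely between the replicates, and they were picked after their values were seen. A member on III from 12003121 to 12003647 scored 248 in replicate 1 and 1066 in replicate 2, a ratio of 4.29. The opposite case lay on II from 8575035 to 8575825, with 1677 in replicate 1 and 303 in replicate 2, a ratio of 0.18. The lowest replicate 1 score at a member, 198, was found on V from 5780696 to 5781046, where replicate 2 had 774. The lowest replicate 2 score, 174, was found on IV from 17125750 to 17126284, where replicate 1 had 717. In all, the ratio was below 0.5 at 23 members and above 3 at 13.

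**Figure D5:**
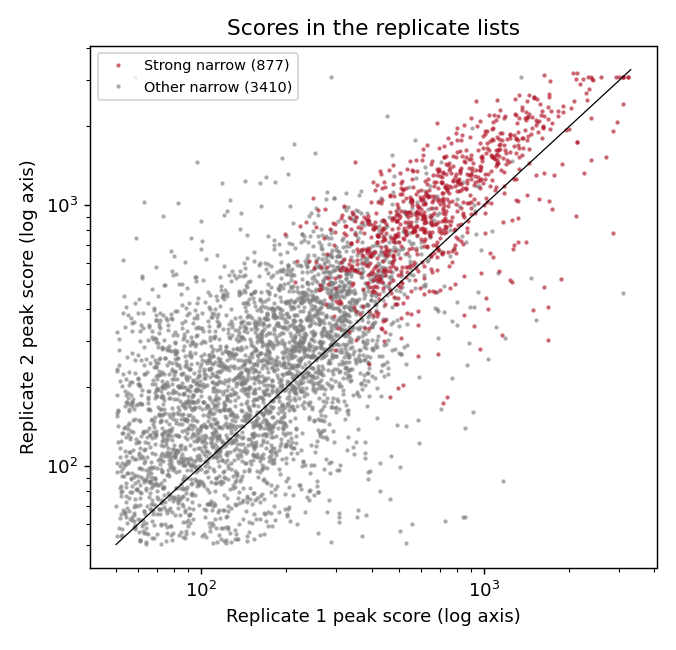
Each point is a narrow combined peak found in both replicate lists, placed by the score of the overlapping peak in replicate 1 and in replicate 2 on log axes, for 877 strong narrow and 3410 other narrow peaks, and the line marks equal scores. Of the strong narrow peaks 84.0% lie above the line, and their scores run from 198 to 3233 in replicate 1.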

How the data were processed

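Peak lists of the 2 ChIP libraries and a series-level list were read. The submitters' processing notes name BWA and ce10. Per the file headers, coordinates are on WormBase WS220. The deposited score of each peak was used as given, and per the source column of the deposited files it was written by MACS for the replicates and MACS v2 for the series-level list. The control, the threshold and any pooling are not stated in these sources. Input libraries were not analysed here, and lists hold no read counts, so depth is unknown.

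Python 3.11.15 with numpy 2.4.6, pandas 2.3.3, scipy 1.17.1 and matplotlib 3.10.9 was used. Overlap meant at least 1 bp and matched bedtools 2.31.1. Chromosome lengths were the largest peak end over the lists. Distances were log10(bp + 1). Exact sign-flip tests had 64 flips over 6 chromosomes, and their intervals invert the test at 0.05. With 6 chromosomes such an interval runs from the lowest to the highest chromosome value. Functions were tested on simulated data. The members, lists and tests were chosen with earlier results of these data known. Peaks named were the 10 highest-scored members, the highest of each chromosome, the 3 narrowest, those nearest each limit, the 3 closest pairs, the most isolated member, the fullest window and the longest empty stretch. A genome of the same build was not used here, so gene positions and sequences are not given.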

Additional observations from a re-analysis of the deposited data

How the results depend on the processing

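Alternatives changed the score limit, the width limit, the compared peaks, the definition of arms or the list used. Those with a score of 30 or 120, with 2 conditions together or with a replicate list alone were chosen after the data were seen. The arm difference stayed positive in all 15 alternatives and passed in 8. It passed against other narrow peaks found in both replicates (0.43), in the replicate 1 list (0.29), in the replicate 2 list (0.31), with covered bases (0.33) and against other narrow peaks scoring 30 or more (0.37), and at 500 bp or wider against peaks found in both replicates (0.54). Limiting both classes to peaks found in 1 replicate list gave 0.42 without replicate 1 and 0.37 without replicate 2. Over the 5 autosomes it was 0.28, where the test cannot pass. The arm difference also missed the threshold with score limits of 50 (0.03) and 80 (0.37), and under 500 bp (0.25). At 500 bp or wider against all other narrow peaks (0.41), with narrower arms (0.18) and without members of 120 or more (0.11) it missed too. The alternatives share many of their peaks, so they are not independent.

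The X ratio stayed below 1 in 12 of 13 alternatives, the exception being 1.17 under 500 bp. Distance to the nearest combined peak lost its call against peaks found in both replicates (0.086, and 0.17 at 500 bp or wider) and in the replicate 2 list (0.00035), and reversed in the replicate 1 list (-0.022) and against scores of 30 or more (-0.0075). Without replicate 1 it was 0.13 and without replicate 2 0.093. Distance to wide peaks passed only at 500 bp or wider (0.15), and reversed to -0.028 under 500 bp, to -0.0093 against scores of 30 or more and to -0.0043 in the replicate 2 list. The cause was not tested. The share of members in both replicates was 99.1% with a reciprocal overlap of 50% and 99.3% with the upper 50% of each replicate list. It was 100% without replicate 1 and without replicate 2. Median spacing was 43247 bp with a score limit of 50 and 112742 bp with one of 80. No paired analysis was possible because each list has 1 class of library and no input list was used here. Gene positions were not analysed here.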
